A study of Mus musculus with 9 samples.

Results

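The cytosolic ribosome of a mouse cell is built from ribosomal RNA and a large set of proteins, each encoded by its own gene and named Rpl for the large subunit and Rps for the small one. Of the genes measured here, 83 had a symbol of the form Rpl or Rps with a number and at most 1 letter, or were Rplp0, Rplp1, Rplp2 or Rpsa, with pseudogenes and ribosomal S6 kinases left out. A minimum of 1 TPM (transcripts scaled to 1000000 per sample) in at least 3 samples left 81 of them, 49 of the large and 32 of the small subunit, among 13820 genes that passed the same minimum and 45777 in all. Rpl10l (0 TPM in every sample) and Rpl39l (0 to 0.931 TPM) did not pass. The rule used no difference between groups, and it requires a level in any 3 of the 9 samples, which the group of highest level can meet alone.

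Ribosomal proteins are made in near equal amounts, and a cell that grows or divides spends much of its transcription on them. Many of their messenger RNAs begin with a C followed by a run of C and T, the 5′ terminal oligopyrimidine (TOP) tract, through which the kinase mTORC1 and the RNA-binding protein LARP1 set how far they are translated. Much of their control is therefore translational and need not change the amount of messenger RNA.

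The samples were bulk RNA-seq libraries of CD11b+ cells taken from dissociated mouse livers. All 9 came from animals with acute liver failure induced by acetaminophen (APAP, injected intraperitoneally), so no group was without injury, and livers were collected 48 h after APAP. The PBS group received PBS, the HEK-EV group SIRP-EVs (extracellular vesicles) derived from HEK cells, which are of human embryonic kidney, and the MSC-EV group SIRP-EVs derived from mesenchymal stem or stromal cells (MSC). The vesicles were injected intravenously 8 h after APAP, and each group has 3 samples. The labels do not give the strain, sex or age of the animals, do not spell out SIRP, and do not say whether the replicates of a group are separate animals, so p-values measure only the spread between these samples. A group given vesicles without SIRP was not analysed here.

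In each sample 13130 to 13633 genes reached 1 TPM. Read counts were not used here, and the values carry no estimate of counting error because the depth is unknown. Coverage divided by FPKM, which grows with the fragments sequenced, had a median over genes of 5.16 to 6.17 in the PBS, 6.11 to 6.33 in the HEK-EV and 6.44 to 6.70 in the MSC-EV samples. Itgam, which encodes CD11b, was at 289, 324 and 377 TPM after PBS, 339, 342 and 434 after HEK-EV and 196, 235 and 255 after MSC-EV, so every MSC-EV sample lay under every other sample. Markers of lipid-associated macrophages summed to 28699 to 33311 TPM in the MSC-EV samples and 15277 to 19446 in the others, with 10 of 12 higher in MSC-EV against PBS (limma adjusted p under 0.05, reached by 5.11% of all genes tested). Those of Ly6C-high monocytes summed to 4156 to 5101 and 6693 to 13268 TPM, with 5 of 10 lower. With 1 sample left out these counts ran from 0 to 11 and from 0 to 7, and both were at most 1 without PBS replicate 2 or 3 or MSC-EV replicate 1 or 2, the second also without HEK-EV replicate 2. They were 1 and 0 with no filter, 1 and 1 with only the 6 samples compared, and 12 and 10 with array quality weights. With the acinar transcripts described below as a term both were 0. Neutrophil markers summed to 3597 to 6598 TPM in the PBS, 5846 to 8176 in the HEK-EV and 3607 to 4470 in the MSC-EV samples. Hepatocyte markers summed to 714 to 839 TPM in the MSC-EV and 354 to 542 in the other samples. Pancreatic acinar markers apart from Cela1 and Ctrl were found in HEK-EV replicates 1 and 2 (0.00289% and 0.114% of TPM) and in MSC-EV replicates 1 and 3 (0.0131% and 0.326%), against 3.29e-05% or less in the other 5. The acinar transcripts served as a term in an alternative fit, given below. The part of the other mixtures in the values that follow was not tested, and in bulk RNA fewer cells of a type and less RNA per cell cannot be told apart.

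The start of the gene, where the TOP tract lies, could be read for 59 of the 81 members from RefSeq promoter sequences (assembly GRCm38.p6, 250 bases before to 50 after an annotated start). A C at the annotated start followed by 4 bases that are each C or T was found in 14 of the 59 (23.7%), against 3.01% of 27025 genes with a promoter in the same table. With the C allowed within 5 bases of the start on either side, 29 of 59 (49.2%) held it, against 21.2%. Where a gene had several annotated starts, any one of them counted. The windows printed here show the tract in 7 members, Rps21, Rps27 and Rps6 among them, whose levels are given later, and 3 members without a C or T at the annotated start for comparison: 8 bases before and 20 from the annotated start, 5′ to 3′ on the gene's strand, with the unbroken run of C and T from the start in capitals.
Rpl15: aaagccttCTTCCTTTCCTCTggcggca
Rps18: cttccgctCTCTCTTCCacaggaggcct
Rps6: agtcgggcCTCTTTTTCgtgacgcctcc
Rps27: ctttcgctCCTTTCCggcggtgacgacc
Rps21: gacccgccCTCCTgcccaatagtgctgc
Rplp2: gcgtcttcCTTTCgccgccggacgccgc
Rpl38: gcctcgttCTTTCCCCgttctcttcggt
Rpl41: gccggctcggaagtgacgacaccgagca
Rps27l: tccccgccgcctctatcccggaagttgc
Rpl3l: ctagctctgtcatttgacctctggtgcc
These windows lie at chr14:18270967-18270994 for Rpl15, chr17:33955646-33955673 for Rps18, chr4:86857348-86857375 for Rps6, chr3:90213629-90213656 for Rps27, chr2:180257371-180257398 for Rps21, chr7:141447643-141447670 for Rplp2, chr11:114668572-114668599 for Rpl38, chr10:128549149-128549176 for Rpl41, chr9:66946078-66946105 for Rps27l and chr17:24727818-24727845 for Rpl3l. The longest of these runs, in Rpl15, a large-subunit protein, had 13 bases, and Rps27 had 7. Its paralog Rps27l had 0 at the annotated start, but a C that lies 1 base further in is followed by 4 bases that are each C or T, so it is among the 29 members of the wider window. A start that is annotated some bases away from the one used in the cell would hide a tract, so a window without capitals says only that these letters are not at the annotated start. In the whole 300 bases, on either strand, CCGGAAG (the core bound by ETS factors such as GABPA) was found in 24 of 59 members (40.7%) against 9.93% of all promoters, and ATGGCGG (within the YY1 motif) in 10 (16.9%) against 4.69%. TATAAA was found in 7 (11.9%) against 15.7%. These are matches of letters and not measured binding.

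Cytosolic ribosomal protein transcripts took between 8.75% and 9.50% of all transcripts in every sample. Their share of total TPM was 9.43%, 9.23% and 9.16% after PBS, 8.77%, 9.23% and 8.75% after HEK-EV, and 9.44%, 9.50% and 9.36% after MSC-EV. The 3 MSC-EV samples lay above the 3 HEK-EV samples, and both the MSC-EV and the HEK-EV range overlapped that of PBS. The group means were 9.27% ± 0.144 (SD, n = 3) for PBS, 8.92% ± 0.275 for HEK-EV and 9.43% ± 0.0670 for MSC-EV. As a sum over chosen members, the share was given no test.

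**Figure D1:**
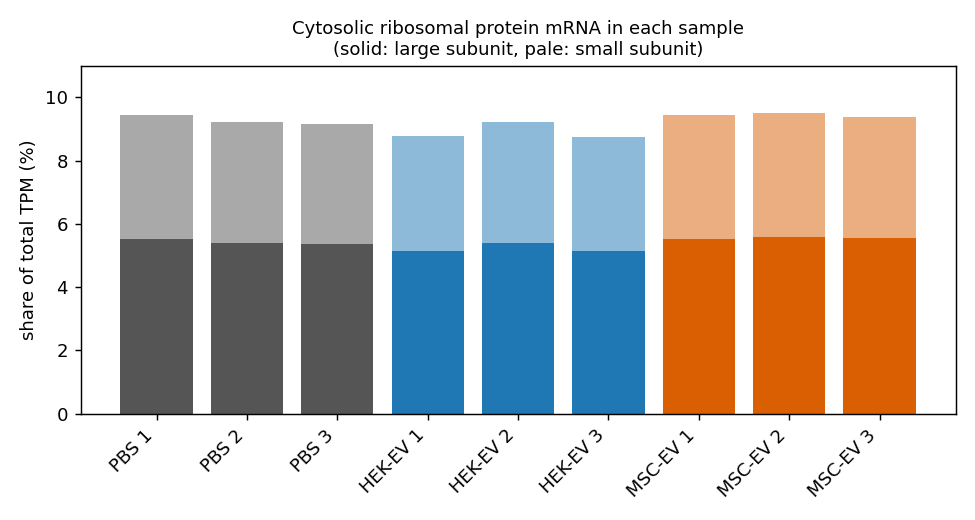
Share of total TPM (%, vertical axis) taken by the 81 members in each of the 9 samples, as bars from 0 with the large subunit in solid and the small subunit in pale colour. Bars reach 8.75% to 9.50%, with HEK-EV replicates 1 and 3 lowest.

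The large subunit took 5.14% to 5.58% of TPM and the small subunit 3.60% to 3.92%, and their ratio stayed between 1.4 and 1.45 in all 9 samples. The share depends on what else is in the total. Mitochondrially encoded genes took 7.55% to 7.90% of TPM in the MSC-EV samples and 5.44% to 6.48% in the others. Without them the members took 9.76% to 10.1% in the PBS, 9.28% to 9.85% in the HEK-EV and 10.2% to 10.3% in the MSC-EV samples, and the MSC-EV samples then also lay above every PBS sample. Annotated ribosomal protein pseudogenes with names ending in -ps, 243 in all, added 2.41% to 2.91% of the members' TPM. The highest of them, Rps6-ps4, averaged 203 TPM, and reads that fit both a gene and its pseudogene may have been split between them.

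The members were among the most abundant genes of the cells. Their mean over 9 samples had a median of 1184 TPM, 51 of 81 reached 1000 TPM, and they made up 29 of the 100 and 62 of the 200 most abundant genes. TPM is per annotated transcript length, so these levels are set beside each other only as far as that length and the reads assigned to each gene allow. The 10 highest were Rps9 (2637 TPM), Rpl41 (2168), Rpl10 (2142), Rps29 (2061), Rpl23a (2053), Rpl19 (1957), Rps23 (1857), Rpl32 (1817), Rpl26 (1816) and Rplp1 (1761), which together held 22% of the members' TPM. Of them Rpl10, Rpl23a and Rpl32 overlap annotated small nucleolar RNA genes, where reads are uncertain. Rpl23a, Rpl19 and Rpl26 surround the exit from which the new protein chain leaves, and Rps23 sits at the decoding centre.

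**Figure D2:**
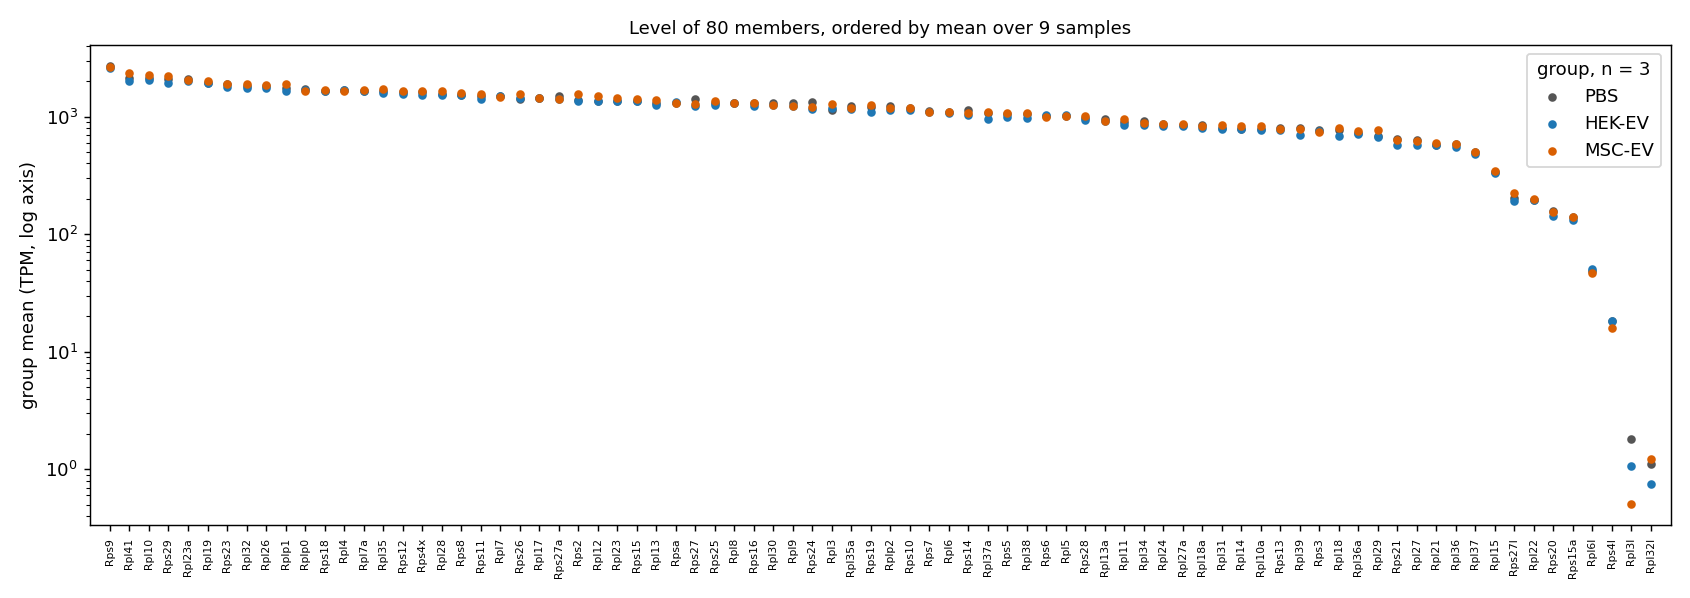
Mean TPM in each group (log axis, n = 3 samples per group) of 80 members, ordered by their mean over 9 samples. The 3 groups lie close together for the members above 100 TPM, and the 4 members under 100 TPM end the order, with Rpl3l separating the groups most.

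Of the 81 members 77 averaged at least 100 TPM. The other 4 were Rpl6l (48.8 TPM), Rps4l (17.5), Rpl3l (1.13) and Rpl32l (1.02), all named as copies of another member. Among the rest Rps15a (137 TPM) and Rps20 (152) were lowest, and they have the longest annotated transcripts of the 78 members with one (5179 and 3706 nt, the median over RefSeq-linked transcripts). An annotated length beyond the one in the cell lowers TPM, and over the 77 members length and level had a Spearman correlation of -0.14, with samples, libraries and annotation in common.

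Levels of the family varied less across the samples than those of other genes. The SD of log2(TPM + 1) over the 9 samples had a median of 0.064 over the members, 0.149 over all genes tested and 0.12 over the genes of at least 100 TPM. Within groups it was 0.0554, 0.130 and 0.0948. This is a description of genes that share libraries and scaling, without a test.

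In HEK-EV against PBS the family leaned lower without any single call. Of the 81 members, 69 had a lower mean of log2(TPM + 1) in the HEK-EV group and 12 a higher one, with a median log2 fold change of -0.06, while 39.0% of all genes tested were lower and their median was 0.03. Of the 1655 genes tested that averaged at least 100 TPM, 924 were higher and 731 lower (median 0.01). No member had an adjusted p under 0.05 in limma (percent called over all genes: 0), and 6 members had an unadjusted p under 0.05, all lower (1.27% of all genes tested, with 2.32% higher). In 17 members each HEK-EV sample lay under each PBS sample (2.29% of all genes tested) and in 0 above (5.51%). By sample, HEK-EV replicate 3 was the lowest of the 9 for 33 members and HEK-EV replicate 1 for 29, against 3 for HEK-EV replicate 2. The lowest sample was not counted over all genes tested, so these counts do not set the members apart from other genes. Without HEK-EV replicate 1 the count of lower members was 64, without replicate 2 it was 77 and without replicate 3 it was 59. It was 55 with array quality weights, which give less weight to samples that stand apart, 59 after quantile normalization and 77 with median-of-ratios scaling. All genes tested shifted too: their median was 0.04 with the weights, 0.002 after quantile normalization and -0.002 with median-of-ratios scaling. Only HEK-EV replicate 2 of the 3 also had a share near that of PBS, and it is one of the samples with acinar transcripts; with these transcripts as a term 72 members were lower. Neutrophil marker sums were higher in HEK-EV than in 2 of the 3 PBS samples, as given above.

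Rps21, a small-subunit protein that takes part in processing of the ribosomal RNA, had the smallest p in that comparison. It was at 648, 658 and 646 TPM after PBS, 606, 575 and 550.4 after HEK-EV and 635, 632 and 615 after MSC-EV. The HEK-EV samples were the lowest and the MSC-EV samples lay between them and PBS without overlap. Its difference was -0.17, SE 0.0519, limma adjusted p = 0.999 (95% interval -0.29 to -0.06), and unadjusted p = 0.00814.

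Rps27, a zinc finger protein of the small subunit, was at 1415, 1482 and 1370.3 TPM after PBS, 1174, 1296 and 1189.8 after HEK-EV and 1363, 1353 and 1123 after MSC-EV. Every vesicle sample lay under every PBS sample, and HEK-EV against PBS gave -0.22, SE 0.0845, limma adjusted p = 0.999, MSC-EV against PBS -0.16, SE 0.0845, limma adjusted p = 0.308. The controls are shared by both values. Rps24, needed for processing of the small subunit's RNA, was at 1408, 1241 and 1335 TPM after PBS, 1167, 1169.8 and 1112 after HEK-EV and 1394, 1098 and 1099 after MSC-EV. The HEK-EV samples lay under PBS without overlap, while MSC-EV replicate 1 was among the PBS values and the other 2 MSC-EV samples were as low as HEK-EV, with -0.21, SE 0.0964, limma adjusted p = 0.999 in HEK-EV against PBS.

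Rpl39, a small protein at the exit tunnel, was at 823, 821 and 764 TPM after PBS, 649.6, 724 and 719.9 after HEK-EV and 843, 768 and 739 after MSC-EV. HEK-EV lay under both other groups (-0.20, SE 0.0705, limma adjusted p = 0.999 against PBS). Others of small p were Rps20 (-0.15), Rpl27 (-0.13) and Rpl3l (-0.41), with the same adjusted p of 0.999. In this fit the 95% interval lay within 0.5 of 0 on the log2 scale for 79 of 81 members (78.2% of all genes tested) and within 0.25 for 62 (30.1%). These intervals leave out the choice of scaling, with which the members' median ran from -0.027 after quantile normalization to -0.092 with median-of-ratios scaling.

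**Figure D3:**
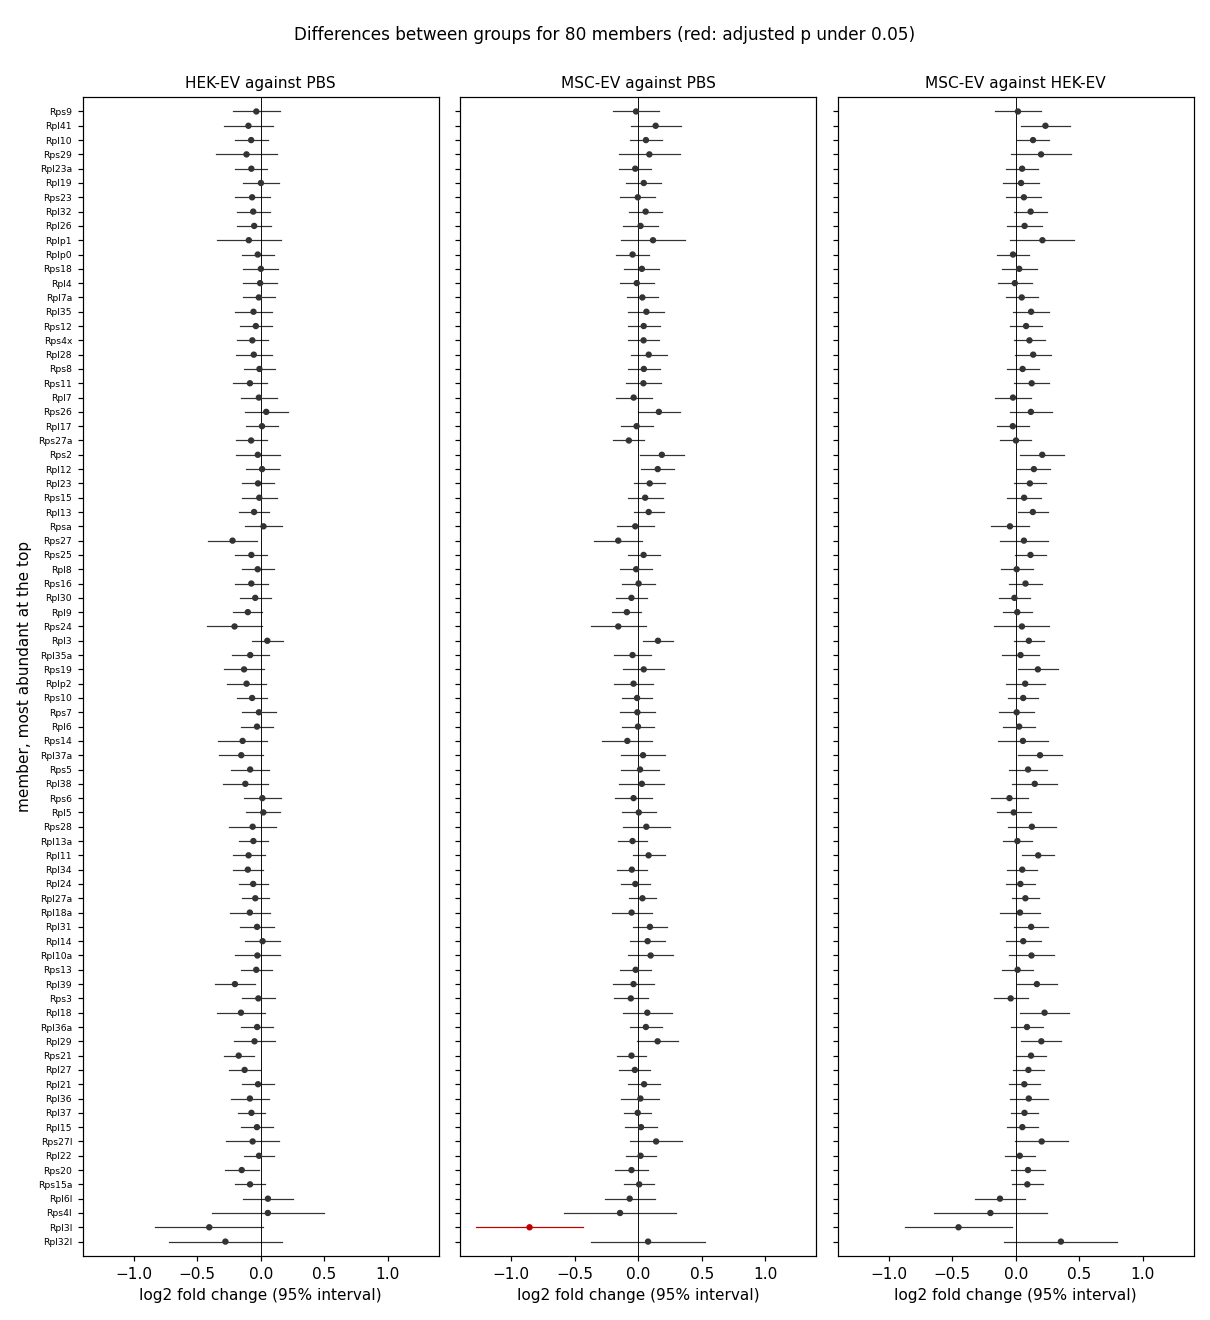
Log2 fold change of each of 80 members with its 95% interval from limma (horizontal axis) in HEK-EV against PBS, MSC-EV against PBS and MSC-EV against HEK-EV, most abundant member at the top. Red marks an adjusted p under 0.05, which Rpl3l alone has, in MSC-EV against PBS.

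In MSC-EV against PBS the family as a whole stayed near 0, and 1 member of 81 passed the threshold. Of 81 members 46 were higher and 35 lower, with a median log2 fold change of 0.02 against 0.01 for all genes tested, of which 52.3% were higher. Genes of similar level leaned lower: of the 1655 tested that averaged at least 100 TPM, 670 were higher and 985 lower (median -0.04). The 77 members of that level had 45 higher and 32 lower (median 0.02). The member with an adjusted p under 0.05 in limma was Rpl3l, where 5.11% of all genes tested were called, a larger share than of the members. These were 706 genes, but 5 and 7 without PBS replicates 2 and 3, and 25 and 59 without MSC-EV replicates 1 and 2. Rpl3l was tested only because the PBS samples, in which it is high, reached the minimum of 1 TPM, as 2 of the 6 vesicle samples did; a difference is built into that choice, and its p is given as a description. At an unadjusted p under 0.05 there were 4 members, Rpl3l lower and Rpl3, Rpl12 and Rps2 higher (23.0% of all genes tested). Groups did not overlap for 11 members that were higher (11.2% of all genes tested) and 6 that were lower (14.9%). The count of higher members moved with the scaling: it was 66 after quantile normalization, 60 when TPM was scaled to a total without members and mitochondrial genes, 63 of 79 in FPKM and 45 with median-of-ratios scaling. All genes shifted with part of these scalings: their median was 0.04 with the reduced total and 0.04 in FPKM, and 0.01 after quantile normalization and with median-of-ratios scaling.

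Rpl3l (Gene ID 66211, chr17:24727829-24736149, plus strand, assembly mm10) encodes a paralog of Rpl3 known from heart and skeletal muscle, where it takes the place of Rpl3 in the ribosome. It was at 1.09, 2.62 and 1.70 TPM after PBS, 0.973, 1.09 and 1.13 after HEK-EV and 0.467, 0.479 and 0.59 after MSC-EV. The MSC-EV samples were the lowest and did not overlap either other group, while PBS replicate 1 lay inside the HEK-EV range. MSC-EV against PBS gave -0.86, SE 0.189, limma adjusted p = 0.038 (95% interval -1.28 to -0.43) and MSC-EV against HEK-EV -0.45, SE 0.189, limma adjusted p = 0.188. All values lay between 0.467 and 2.62 TPM, where the added 1 understates the change, and a level of this size was at most 0.229% of Rpl3 and Rpl3l together. The call was lost in 11 of the other settings, among them no filter (adjusted p = 0.0668), only the 6 samples compared (0.0759), the acinar term (0.152) and without PBS replicate 2, the highest value (log2 fold change -0.65, adjusted p = 0.133). Leaving out any 1 sample other than PBS replicate 1 or HEK-EV replicate 1 lost it, with adjusted p from 0.0512 to 0.136, and in FPKM or with a minimum of 5 TPM it did not pass the filter. Over the settings the adjusted p ran from 0.000909 to 0.152, and all fold changes were below 0.

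Rpl3, the canonical copy near the peptidyl transferase centre, was at 1179, 1141 and 1103 TPM after PBS, 1158, 1219.9 and 1169 after HEK-EV and 1264, 1297 and 1249.7 after MSC-EV. The MSC-EV samples were the highest of the 9, and MSC-EV against PBS gave 0.16, SE 0.0537, limma adjusted p = 0.12. Rpl3 overlaps the annotated small nucleolar RNA genes Snord43 and Snord83b, so reads there are uncertain.

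Rps2, at the entry of the messenger RNA channel, was at 1482, 1286 and 1358 TPM after PBS, 1250.2, 1362 and 1449 after HEK-EV and 1527, 1629 and 1533 after MSC-EV. Each MSC-EV sample lay above each other sample (0.19, SE 0.0766, limma adjusted p = 0.183 against PBS, 0.21, SE 0.0766, limma adjusted p = 0.138 against HEK-EV). It lies at chr17:24718121-24721927 on the same strand and chromosome as Rpl3l, and overlaps Snora78, Snora64 and Snhg9. Rpl12, of the stalk base, was at 1426, 1286 and 1327 TPM after PBS, 1348, 1355 and 1361 after HEK-EV and 1457, 1501 and 1531 after MSC-EV. The MSC-EV samples were again the highest (0.15, SE 0.0577, limma adjusted p = 0.149 against PBS), and Rpl12 overlaps Snora65. None of Rpl3, Rps2 and Rpl12 passed the threshold, and 23 of the 81 members overlap an annotated small nucleolar RNA gene, where reads are likewise uncertain. Rps26 (0.16, SE 0.0746, limma adjusted p = 0.231) and Rpl29 (0.15, SE 0.0705, limma adjusted p = 0.235) were next above, and Rps27 and Rpl9 (-0.09, SE 0.0503, limma adjusted p = 0.334) below. With array quality weights Rpl3, Rps2, Rpl12, Rps26, Rpl29, Rpl41 and Rps27l passed as well as Rpl3l; these weights called 4163 of the 13820 genes tested, a larger share than of the members. The 95% interval lay within 0.5 of 0 for 78 of 81 members (66.2% of all genes tested) and within 0.25 for 63 (21.6%).

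In MSC-EV against HEK-EV most members were higher in the MSC-EV samples by a small amount. Of 81 members, 69 were higher and 12 lower, with a median log2 fold change of 0.07 against -0.02 for all genes tested, of which 46.2% were higher and 53.8% lower. Of the 1655 genes tested that averaged at least 100 TPM, 639 were higher and 1016 lower (median -0.05). No member passed an adjusted p of 0.05 in limma, where 5.91% of all genes tested did (817 genes, but 1, 0 and 31 without HEK-EV replicates 1, 2 and 3 and 0 without MSC-EV replicate 1 or 2). At an unadjusted p under 0.05, 13 members were higher and 1 lower (8.23% and 15.1% of all genes tested). The groups did not overlap for 28 higher members (12.6% of all genes tested) and 1 lower member (17.5%). Counts of higher members ran from 61 without HEK-EV replicate 3 to 77 of 79 in FPKM. All genes tested shifted too, with medians of -0.007 without HEK-EV replicate 3 and 0.04 in FPKM. This comparison shares its samples with the other 2, so it is not a separate observation of the low HEK-EV samples.

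Other gene lists are given for the same 2 groups, with no test of a list. Lipid-associated macrophage markers were higher for 12 of 12 (9 called) and Ly6C-high monocyte markers lower for 10 of 10 (5 called). Neutrophil markers were lower for 11 of 15, with 2 called lower and 1 called higher. Of 15 cell cycle genes, which mark dividing cells, 15 had a higher mean in MSC-EV than in HEK-EV (median log2 fold change 0.27, 0 called), and their sums overlapped at 774 to 1071 and 731 to 876 TPM. Lymphocyte markers were higher for 5 of the 6 tested of 13 (1 called), with sums of 52.2 to 130.1 and 40.2 to 58.1 TPM. Biliary markers were higher for 7 of the 8 tested of 9 (4 called), with sums of 1792 to 2382 and 908 to 1195 TPM, and hepatocyte markers for 12 of 12 (4 called). The biliary and the lipid-associated macrophage lists share the gene Spp1, so their counts and sums are not separate. In this comparison 5.91% of all genes tested were called, and without HEK-EV replicate 1 or 2 or MSC-EV replicate 1 or 2 all of these lists had 0 calls. Endothelial markers were lower for 8 of 8 and Kupffer cell markers for 7 of 8, with 0 called in either list and sums of 146 to 284 against 227 to 492 TPM and 1547 to 2725 against 1879 to 3892 TPM. The part of these cells, or of dividing cells, in the members' values was not tested.

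Rpl11, which with Rpl5 and 5S RNA can bind the p53 regulator Mdm2, was at 916, 886 and 890.0 TPM after PBS, 874, 855 and 793 after HEK-EV and 932, 942 and 976 after MSC-EV. The 3 groups were ordered HEK-EV, PBS and MSC-EV without overlap, with 0.18, SE 0.0557, limma adjusted p = 0.0914 in MSC-EV against HEK-EV and -0.10, SE 0.0557, limma adjusted p = 0.999 in HEK-EV against PBS.

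Rpl41, the shortest ribosomal protein, was at 2286, 2021 and 2119 TPM after PBS, 1819, 2183 and 2016 after HEK-EV and 2502, 2376 and 2191 after MSC-EV. HEK-EV replicate 1 was the lowest and MSC-EV replicate 1 the highest sample, and MSC-EV lay above HEK-EV without overlap (0.23, SE 0.0872, limma adjusted p = 0.144). Others of small p were Rpl29 (0.20, SE 0.0705, limma adjusted p = 0.122), Rpl18 (0.23, SE 0.0852, limma adjusted p = 0.147), Rpl13 (0.13, SE 0.0526, limma adjusted p = 0.16) and Rpl37a (0.19, SE 0.0765, limma adjusted p = 0.17). The 95% interval lay within 0.5 of 0 for 78 members (66.4% of all genes tested) and within 0.25 for 50 (19.4%).

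Members were also read by role, with no test of a list. The stalk proteins Rplp0, Rplp1 and Rplp2, which recruit translation factors, summed to 4481 to 4791 TPM in the PBS, 4146 to 4760 in the HEK-EV and 4703 to 4768 in the MSC-EV samples. Rplp1 varied most among them, at 1865, 1751 and 1621 TPM after PBS, 1369.5, 1817 and 1751 after HEK-EV and 2031, 1898 and 1749.9 after MSC-EV, with HEK-EV replicate 1 the lowest and MSC-EV replicate 1 the highest. Rplp0, often used as a reference gene, stayed between 1607 and 1752 TPM, and its log2 fold changes were -0.02 in HEK-EV and -0.04 in MSC-EV against PBS. Rps6, the substrate of S6 kinase, was at 983, 997 and 1082 TPM after PBS, 1053, 1056 and 978 after HEK-EV and 943, 1008 and 1032 after MSC-EV. These ranges overlapped in all 3 groups (MSC-EV against PBS -0.04, SE 0.0642, limma adjusted p = 0.79, 95% interval -0.18 to 0.11).

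Rpl5, the partner of Rpl11 in the 5S particle, stayed between 954 and 1068 TPM, with a log2 fold change of 0.00 in MSC-EV and 0.02 in HEK-EV against PBS. Rps27a, made as a fusion with ubiquitin, was at 1460.0 to 1511 TPM in PBS, 1389 to 1418 in HEK-EV and 1349 to 1458 in MSC-EV samples. Each vesicle sample lay under each PBS sample. The 10 members mutated in Diamond-Blackfan anemia had 8 lower and 2 higher in HEK-EV against PBS (median -0.08) and 4 lower and 6 higher in MSC-EV against PBS (median 0.01). None of the 10 was called by limma in either, where 0% and 5.11% of all genes tested were. The 7 around the exit of the nascent chain had 5 lower and 2 higher in HEK-EV against PBS (median -0.05) and 3 lower and 4 higher in MSC-EV against PBS (median 0.02). Both lists leaned the way of the whole family, with 69 of 81 members lower in HEK-EV and 46 higher in MSC-EV against PBS. Over all genes tested 39.0% were lower and 52.3% higher in the same order. The 4 X-linked members (Rpl10, Rpl36a, Rpl39 and Rps4x) summed to 4839 to 5099 TPM in HEK-EV, 5203 to 5357 in PBS and 5272 to 5517 in MSC-EV samples, so the HEK-EV sums lay under all others.

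Among the copies, Rps27l, a p53 target that differs from Rps27 by few residues, was at 209, 183 and 213 TPM after PBS, 195, 181 and 201 after HEK-EV and 223, 248 and 197 after MSC-EV. It made up 11% to 13.4% of Rps27 and Rps27l together in the PBS, 12.3% to 14.5% in the HEK-EV and 14.1% to 15.5% in the MSC-EV samples. The MSC-EV share lay above PBS in every sample and overlapped HEK-EV, and neither gene passed the threshold (Rps27l 0.14, SE 0.0919, limma adjusted p = 0.408). Rpl6l made up 3.69% to 4.52% of Rpl6 and Rpl6l in the PBS, 4.33% to 4.70% in the HEK-EV and 3.71% to 4.25% in the MSC-EV samples, so the MSC-EV share lay under HEK-EV in every sample and PBS overlapped both. Rps4l made up 0.795% to 1.47% of Rps4x and Rps4l, and these shares overlapped between all 3 groups. Reads of these near-identical genes may have been assigned to either copy.

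The members varied together from sample to sample. Over the 77 members of at least 100 TPM, the first principal component of log2(TPM + 1) held 47.6% of their variance, with scores of -0.95, -0.09 and -0.42 after HEK-EV, 0.39, -0.03 and -0.16 after PBS and 0.63, 0.47 and 0.16 after MSC-EV. HEK-EV replicate 1 was at one end and MSC-EV replicate 1 at the other, and the PBS scores overlapped those of both other groups. Pairs of members had a median Pearson correlation of 0.37 over the 9 samples, and 81.5% of pairs were above 0; they share libraries, scaling and groups. The largest loadings were those of Rplp1 (0.30), Rpl41 (0.27), Rps29 (0.27), Rpl37a (0.24) and Rps19 (0.21).

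**Figure D4:**
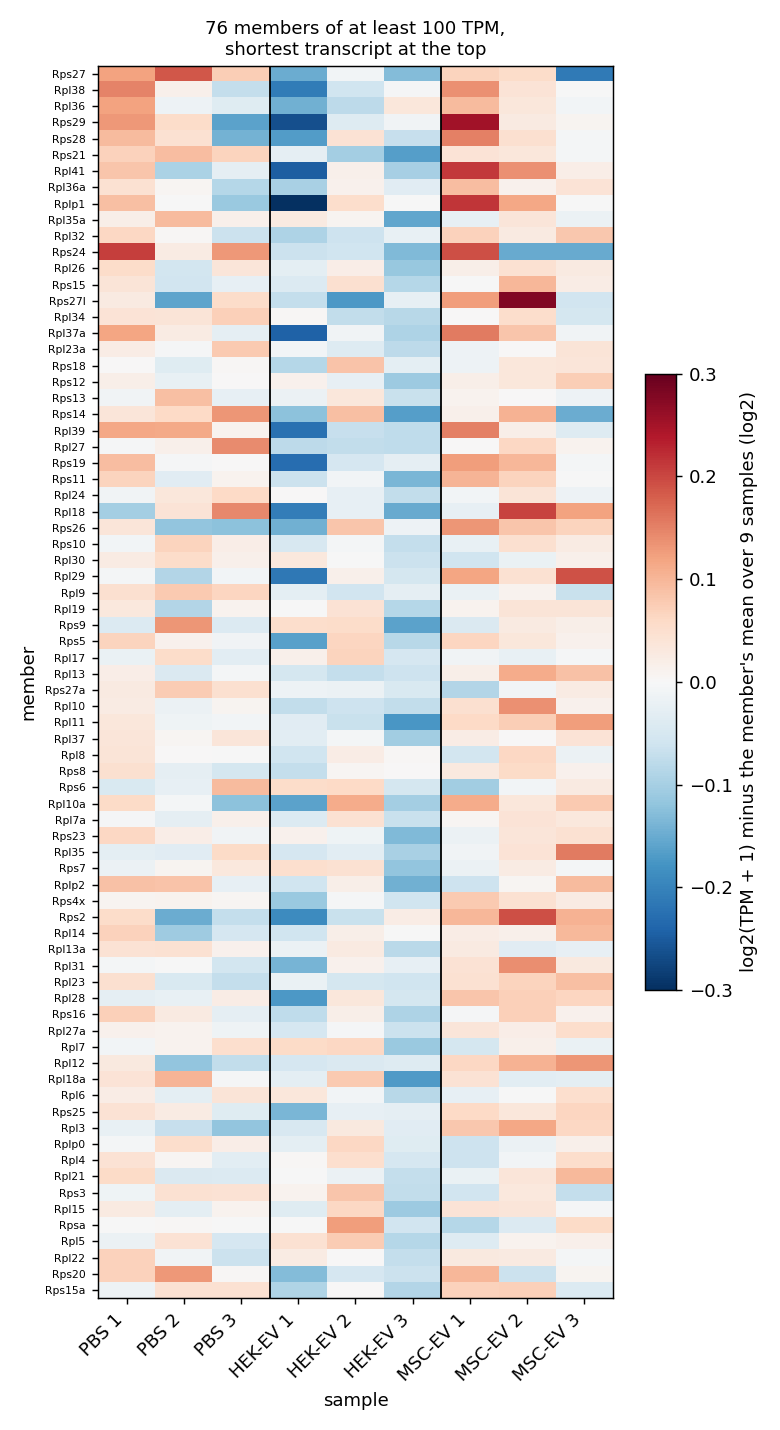
Deviation of log2(TPM + 1) from the member's mean over 9 samples (colour, -0.3 to 0.3) for 76 members of at least 100 TPM (vertical axis, shortest transcript at the top) in each sample. HEK-EV replicates 1 and 3 are blue for most members, and the strongest colours of replicate 1 are among the short transcripts at the top.

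Rplp1, Rpl41, Rps29 and Rpl37a are among the 25 members with the shortest annotated transcripts (345 to 614 nt), and Rps19 (633 nt) is among those of middle length. The 25 shortest deviated by a mean of -0.11 and -0.08 in HEK-EV replicates 1 and 3, where 22 and 24 of them lay below their own mean. They deviated by 0.07 in PBS replicate 1 and 0.08 in MSC-EV replicate 1, where 2 and 4 lay below it. For the 25 longest (975 to 5179 nt) the same samples deviated by -0.05, -0.06, 0.02 and 0.02 in that order. In HEK-EV against PBS the median log2 fold change was -0.09 for the shortest, -0.06 for the 27 of middle length and -0.02 for the longest. In MSC-EV against HEK-EV it was 0.10, 0.06 and 0.07, and 25 of 25 of the shortest members were higher. Spearman correlations of length with deviation over the 77 members ran from -0.39 in PBS replicate 1 to 0.36 in HEK-EV replicate 1 and 0.33 in HEK-EV replicate 2. The part of library preparation or RNA quality in this was not tested.

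Other genes of translation were read beside the members. Of 7 ribosomal protein genes outside the symbol rule, 5 were lower in HEK-EV against PBS and 4 in MSC-EV against PBS, and 0 were called by limma in any comparison. Fau, made as a fusion with a ubiquitin-like protein, averaged 1607 ± 35.7 TPM in the PBS, 1522 ± 126 in the HEK-EV and 1509 ± 54.7 in the MSC-EV group (SD, n = 3). The 3 of smallest p in MSC-EV against PBS were Rpl36al (-0.09, SE 0.056, limma adjusted p = 0.397), Fau (-0.09, SE 0.0706, limma adjusted p = 0.497) and Rpl22l1, a paralog of Rpl22 (-0.07, SE 0.0811, limma adjusted p = 0.677). Rpl22l1 averaged 148 ± 2.63, 125 ± 10.3 and 141 ± 14.1 TPM in the same order.

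The 19 translation factors and related genes with a TOP tract had 0 calls in any comparison, with 12 lower and 7 higher in HEK-EV and in MSC-EV against PBS and medians of -0.01 in both. The elongation factor subunit Eef1g had the smallest p of them in MSC-EV against PBS (0.16, SE 0.0613, limma adjusted p = 0.151), followed by the initiation factor subunits Eif3m (-0.11) and Eif3h (-0.10). Over all genes tested, 61.0% were higher in HEK-EV and 52.3% in MSC-EV against PBS. The 22 initiation factors had 0 calls and 18 higher in HEK-EV against PBS (median 0.05), with Eif1, which helps select the start codon, at -0.16, SE 0.0518, limma adjusted p = 0.109 in MSC-EV against PBS, the RNA helicase Eif4a2 at -0.20 and Eif6, which keeps the subunits apart, at -0.12. The 34 ribosome biogenesis genes also had 0 calls, with 25 higher in HEK-EV (median 0.03) and 22 lower in MSC-EV (median -0.03) against PBS, and with Bop1 (-0.13, SE 0.0739, limma adjusted p = 0.339), Nat10 (0.15) and Nop16 (-0.12) of smallest p in MSC-EV against PBS. The biogenesis and initiation lists thus leaned the way of all genes in HEK-EV against PBS, where the ribosomal proteins had more lower members; the difference between lists was not tested.

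Of 16 genes of mTORC1 and TOP control, Sesn2, a stress-induced inhibitor of mTORC1, was lower in MSC-EV against HEK-EV (15.6 ± 0.889 against 19.9 ± 1.92 TPM). Its difference was -0.32, SE 0.0809, limma adjusted p = 0.0494, just under the threshold. With 1 sample left out its limma adjusted p was 0.0437 to 0.177, and the call held only without PBS replicate 1. The call held with 0.1 added in place of 1, a minimum of 5 TPM and array quality weights. It was lost with no filter (0.0735), only the 6 samples compared (0.069), the replicate block (0.0812) and the acinar term (0.0562). It was also lost in FPKM (0.0816), with median-of-ratios scaling (0.0587), quantile normalization (0.0534), the reduced total (0.0733) and the coverage to FPKM covariate (0.0608). The other 15 genes were not called, where 5.91% of all genes tested were. By direction 13 of the 16 were higher in HEK-EV against PBS (median 0.09, with 61.0% of all genes tested higher) and 13 lower in MSC-EV against HEK-EV (median -0.10, with 53.8% lower). In MSC-EV against PBS 0 of the 16 were called, with Eif4ebp1, a target of mTORC1 that blocks initiation, at -0.17, SE 0.069, limma adjusted p = 0.188, Akt1s1, an inhibitory subunit of mTORC1, at 0.18 and Ddit4, another stress-induced inhibitor, at -0.35. The 78 mitochondrial ribosomal protein genes, a list added after the files were read, took 0.351% to 0.377% of TPM in every sample. Of them 52 were lower in HEK-EV against PBS (median -0.02), 55 higher in MSC-EV against PBS (0.05) and 58 higher in MSC-EV against HEK-EV (0.07), against 39.0%, 52.3% and 46.2% of all genes tested; the cytosolic members had 69 of 81, 46 and 69 in the same directions. Mrps36 alone of the 78 was called, where 5.11% of all genes tested were in MSC-EV against PBS and 5.91% in MSC-EV against HEK-EV: it averaged 48.4 ± 0.715 TPM in the PBS, 47.8 ± 0.245 in the HEK-EV and 58.0 ± 1.94 in the MSC-EV group (0.26, SE 0.0495, limma adjusted p = 0.0273 against PBS, 0.28, SE 0.0495, limma adjusted p = 0.0233 against HEK-EV). With 1 sample left out its limma adjusted p ran from 0.0145 to 0.125 against PBS, where the call was lost without PBS replicate 2 or 3, HEK-EV replicate 2 or any MSC-EV replicate. Against HEK-EV it ran from 0.012 to 0.0899, and the call was lost without any HEK-EV replicate or MSC-EV replicate 1 or 2. With the replicate block both calls of Mrps36 were lost (limma adjusted p = 0.0634 against PBS and 0.0529 against HEK-EV). Against PBS the call was also lost with only the 6 samples compared (0.068), the coverage to FPKM covariate (0.0607) and the acinar term (0.123). Both calls held under the other filters and scalings. Mrpl48 (0.66, SE 0.176, limma adjusted p = 0.0637) and Mrpl33 (-0.32, SE 0.0911, limma adjusted p = 0.0756) followed in MSC-EV against PBS. Mrps36, named as a mitochondrial ribosomal protein, is known as a subunit of the 2-oxoglutarate dehydrogenase complex.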

How the data were processed

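RNA of liver CD11b+ cells was taken up in Trizol, and the TruSeq Stranded mRNA kit served for the libraries, per the labels. Reads were processed with HISAT2 2.1.0 and StringTie on build mm10, per the submitters' processing notes; the StringTie version and the use of strand are not given in the sources used here. Each of the 9 deposited tables gives coverage, FPKM and TPM per gene. The authors' TPM add up to 1000000 per sample. FPKM as deposited served as an alternative, and coverage, a mean read signal per the file headers, served only in its ratio to FPKM. Gene IDs were matched to RefSeq symbols (GRCm38.p6) for 45679 of 45777 (99.79%).

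A linear model was fitted by limma 3.58.1 (R 4.3.3, lmFit with a moderated trend) to log2(TPM + 1) of the 13820 genes that reached 1 TPM in 3 samples or more, all 9 samples in 1 fit without covariates, two-sided, with Benjamini-Hochberg adjustment over all genes tested and a threshold of 0.05. The fit was tested on simulated data. Fold changes are differences on the log2(TPM + 1) scale and understate the change of low genes. Members named are the 10 most abundant, the 8 of smallest p per comparison, the lowest, and those of short role lists; some genes that the rule names are not reported here, and 1 is not drawn. From other lists came the 3 of smallest p in MSC-EV against PBS and any called. Markers are given as sums of TPM. Members and lists were chosen with earlier results of these data known. Python 3.11.15 with pandas 2.3.3 and matplotlib 3.10.9 was used for shares, promoter matches and figures. Transcript lengths are medians over the RefSeq-linked transcripts of GENCODE.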

Additional observations from a re-analysis of the deposited data

How the results depend on the processing

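Of the members, 1 was called in MSC-EV against PBS. This count was 0 without a filter, with a minimum of 5 TPM, in FPKM, with only the 6 samples compared, with the replicate block and with the acinar term, 8 with array quality weights, and 0 to 2 when a sample was left out (2 without PBS replicate 1; 0 without PBS replicates 2 or 3, HEK-EV replicates 2 or 3, or any MSC-EV replicate). Calls over all genes tested moved too, from 706 to 4163 with array quality weights, 361 without a filter, 77 with only the 6 samples compared, 21 with the acinar term, 1861 without PBS replicate 1, and 5 and 7 without PBS replicates 2 and 3. In MSC-EV against HEK-EV it was 1 after quantile normalization and 1 with array quality weights, and in HEK-EV against PBS it stayed at 0 in every setting run. Rpl3l did not pass the filter with a minimum of 5 TPM or in FPKM; the cause of the other changes was not tested. The labels do not say whether the replicate numbers pair the samples. Same-numbered samples deviated from their group means with correlations of -0.50 to 0.06 over all genes tested and -0.55 to 0.42 over the members. With 3 samples per group these values cannot decide whether samples were paired. With the replicate block Rpl3l had a limma adjusted p of 0.0558. The planned split by acinar transcripts put all 9 samples on one side and could not be fitted, so a split without Cela1 and Ctrl was added after seeing the data.

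The members' median log2 fold change in MSC-EV against PBS (0.02) was 0.062 in FPKM, 0.061 after quantile normalization, 0.051 with a total without members and mitochondrial genes, 0.032 with array quality weights, 0.028 with the coverage to FPKM ratio as a covariate, 0.0046 with the acinar term, and 0.0059 to 0.035 with a sample left out. In HEK-EV against PBS (-0.06) it was -0.092 with median-of-ratios scaling, -0.027 after quantile normalization, -0.034 with array quality weights and -0.078 to -0.042 with a sample left out. In MSC-EV against HEK-EV (0.07) it was 0.14 in FPKM, 0.10 with median-of-ratios scaling, 0.11 with the reduced total, and 0.048 to 0.10 with a sample left out. The median of all genes tested moved with the scaling too. In MSC-EV against HEK-EV (-0.02) it was 0.04 in FPKM, 0.009 with median-of-ratios scaling and 0.02 with the reduced total. In HEK-EV against PBS (0.03) it was -0.002 with median-of-ratios scaling and 0.002 after quantile normalization. In MSC-EV against PBS (0.01) it was 0.04 in FPKM, 0.009 after quantile normalization and 0.04 with the reduced total. With the coverage to FPKM ratio as a covariate the median of all genes was 0.098 in MSC-EV against PBS, above the 0.028 of the members. The members' median there also lay under that of all genes without PBS replicate 1 (0.035 against 0.043). The same held without MSC-EV replicate 1 (0.014 against 0.015) or 2 (0.016 against 0.025). No median of the members changed sign in these settings. The mean share, for PBS, HEK-EV and MSC-EV in turn, was 9.87%, 9.48% and 10.2% without mitochondrially encoded genes, 12.9%, 12.4% and 13.6% without the 100 most abundant other genes, and 9.95%, 9.57% and 10.1% with the genes outside the symbol rule. With a sample left out it was 9.19% to 9.33%, 8.76% to 9.0% and 9.40% to 9.47%. Without read counts, differences of the size seen here could not be set against counting error.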
